A study of Bos taurus with 14 samples.

Results

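The bovine miRNAs with names from bta-miR-11970 to bta-miR-12070 form one of the latest blocks of cattle miRNA names. They were chosen by number alone, with any letter suffix, from the small RNA libraries of cow blood. Of 932 miRNA names listed in at least 1 library, 723 were bovine (bta) and 57 of these fell in the block. The other names were human (hsa) homologues. The libraries came from ruminally cannulated, non-lactating Holstein cows that first ate a forage diet (FD, 0% concentrate) and then a high-grain diet (HG, 65% concentrate). Blood was taken by jugular puncture on FD and in week 1 of HG. Plasma was sequenced for 4 cows on each diet, which gave 8 libraries, and leucocytes for cows 1, 3 and 4 on each diet, which gave 6. The study asked which circulating miRNAs differ between the diets, and the comparisons here ask which members of the block are well supported by reads and in which sample type and diet.

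miRNAs are short RNAs cut from hairpin precursors that guide Argonaute proteins to partly matching messenger RNAs. Many lie inside the introns of other genes and are made with them, while others have their own transcription unit. The processing of a hairpin usually leaves a family of near-identical reads that differ by a base or so at their ends, called isomiRs, so the number of distinct read sequences behind a read count is a further measure of how a name was observed. Plasma carries miRNAs that blood cells and tissues release, and leucocytes carry those of the white cells themselves with what remains of red cells and platelets.

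For each name the authors deposited a read count, the number of distinct read sequences and an estimated count, in which reads that map to several places are divided among them. Summed estimated counts were 292241 to 3178990 per plasma library and 18324737 to 56770875 per leucocyte library. Levels are given as CPM, the estimated count per 1e6 estimated counts of the library. The smallest read count listed in any library was 2, so a name that was not listed may have had a single read. A count of 2 stood for 0.629 to 6.84 CPM in plasma and 0.0352 to 0.109 CPM in leucocytes, so the same level in the cells and in plasma could be listed in one and missing from the other. Of 4 lists of marker miRNAs, every member was found in every library. The 8 erythrocyte miRNAs summed to 268359 to 431973 CPM in leucocytes and 66719 to 155479 CPM in plasma. The 6 leucocyte miRNAs summed to 22850 to 34074 CPM in leucocytes and 16409 to 34765 CPM in plasma, and the 3 liver miRNAs to 1161 to 1386 CPM and 10114 to 90426 CPM. The 4 platelet miRNAs summed to 3593 to 4854 CPM in leucocytes and 4586 to 11031 CPM in plasma. Leucocyte libraries thus held more erythrocyte than leucocyte marker reads, and the part of this in the results below was not tested.

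The members were listed far more often in leucocytes than in plasma. A name had to be listed in at least 1 library to be a member, and 39 of the 95 names that RefSeq holds in this number range were in none. At least 2 reads were found for 56 of the 57 members in leucocytes and for 24 in plasma, with 23 in both. Of the members, 25 were listed in all 6 leucocyte libraries and 2 in all 8 plasma libraries. At the other end, 11 members were listed in a single leucocyte library and 9 in a single plasma library, and 18 members had under 10 estimated counts in each sample type. The contrast between sample types was also seen outside the block. Of the 666 other bovine names, 658 were listed in leucocytes and 439 in plasma, with 468 and 254 in every library. Among these, the 129 names from bta-miR-2286 to bta-miR-2489 were close to the members. Of them, 129 were listed in leucocytes and 43 in plasma, with 67 and 4 in every library. The depths differed along with this contrast. For 35 of the 56 members seen in leucocytes, the mean leucocyte level was below the level that 2 reads stood for in every plasma library, and for 3 it was above it in every plasma library. The tables in which the authors kept names for their own tests held 16 members for plasma and 29 for leucocytes, and 25 members were in neither.

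**Figure D1:**
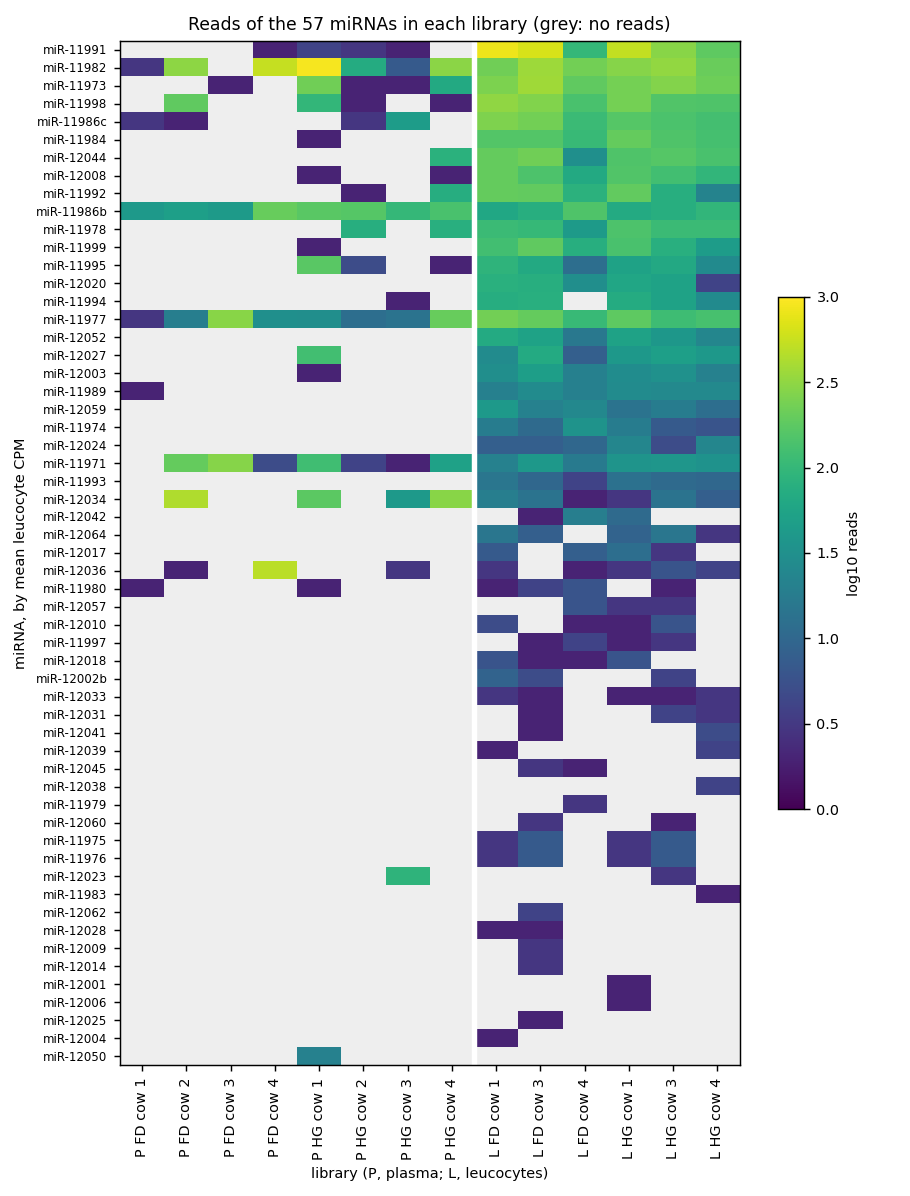
Reads of the 57 members (vertical axis, ordered by mean leucocyte CPM) in the 8 plasma (P) and 6 leucocyte (L) libraries (horizontal axis), coloured by log10 reads and grey where not listed. In leucocytes 25 members filled every column, whereas in plasma 2 did and most members were grey or coloured in a single library.

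Together the members took little of any library. In plasma their share of all estimated counts averaged 0.0461% ± 0.0374 over the 4 FD libraries and 0.0458% ± 0.0110 over the 4 HG libraries (mean ± SD). In leucocytes the averages over 3 libraries were 0.00745% ± 0.00118 with FD and 0.00716% ± 0.000651 with HG. The plasma range of 0.0163% to 0.0955% lay above the leucocyte range of 0.00629% to 0.00865% without overlap. The difference between diets was far inside the spread between cows in plasma, at -0.000278 ± 0.0414 percentage points (SD of the paired difference, n = 4 cows, higher on HG in 2). It was -0.000290 ± 0.000562 in leucocytes (n = 3 cows, higher on HG in 1).

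The well supported members were found in leucocytes. A member was called well supported in a sample type when every library held at least 10 estimated counts and at least 5 distinct read sequences for it. In leucocytes 6 of 57 members (10.5%) met this, beside 28 of 129 names from bta-miR-2286 to bta-miR-2489 (21.7%), an earlier block, and 311 of all 666 other bovine names (46.7%). In plasma no member met it, beside 1 of 129 and 139 of 666 (20.9%). Every plasma library was shallower than every leucocyte library, so 10 counts stood for a higher level in plasma. The 6 were bta-miR-11978, bta-miR-11982, bta-miR-11984, bta-miR-11986c, bta-miR-11998 and bta-miR-12003. With cow 4 left out, whose leucocyte libraries were the shallowest, 13 members met the rule.

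bta-miR-11982 had the most distinct sequences of the 6. It lies on chromosome 28 from 8597867 to 8597889 on the minus strand of UMD3.1, the build of the deposited files. In the RefSeq annotation of ARS-UCD2.0 its locus overlaps LYST, a regulator of lysosome-related granules. In leucocytes its levels were 3.89, 7.53 and 12.4 CPM on FD and 6.08, 9.82 and 8.72 CPM on HG (cows 1, 3 and 4). Each library held 205 to 363 estimated counts made of 20 to 37 distinct sequences. Whether these differed at their ends or by mismatches was not examined. The diets overlapped.

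bta-miR-11998 and bta-miR-11986c were the next highest of the 6. bta-miR-11998 lies on chromosome 13 from 34121687 to 34121708 on the minus strand, in a locus that overlaps ZEB1, a transcriptional repressor of epithelial and lymphoid genes. Its leucocyte levels were 5.62, 5.56 and 7.53 CPM on FD and 5.12, 4.60 and 6.30 CPM on HG, lower on HG in each of the 3 cows. bta-miR-11986c lies on chromosome X from 40402325 to 40402346 on the minus strand and overlaps a long noncoding RNA, LOC101903165. It was at 4.62, 4.79 and 6.06 CPM on FD and at 3.49, 4.21 and 5.36 CPM on HG, again lower on HG in each cow, while the ranges of the diets overlapped for each of these miRNAs. Neither difference passed the test of diet given below.

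bta-miR-11984 lies on chromosome 4 from 119142889 to 119142911 on the plus strand, in a locus that overlaps NOM1, which codes for a nucleolar protein. It was at 2.80, 3.30 and 5.78 CPM on FD and at 4.16, 4.42 and 5.61 CPM on HG in leucocytes. bta-miR-12003 lies on chromosome 25 from 7945450 to 7945472 on the plus strand, overlapping HAPSTR1, and was the faintest of the 6. Its leucocyte levels were 0.528, 0.996 and 1.09 CPM on FD and 0.621, 0.985 and 0.893 CPM on HG, from 20 to 48 counts a library. bta-miR-11978 lies on chromosome 2 from 31531410 to 31531431 on the minus strand, in a locus that overlaps COBLL1, a gene related to the actin nucleator cordon-bleu. It was at 1.96, 2.12 and 2.35 CPM on FD and at 3.11, 3.34 and 4.72 CPM on HG in leucocytes. Every HG library lay above every FD library for it.

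High levels alone did not make a member well supported. bta-miR-11991 was the most abundant member in leucocytes, at 15.0, 13.5 and 5.46 CPM on FD and 11.4, 8.75 and 7.61 CPM on HG. It lies on chromosome 3 from 95131214 to 95131234 on the minus strand, overlapping OSBPL9, an oxysterol-binding protein-like gene. Its 849 reads in cow 1 on FD were made of 10 distinct sequences and its 100 reads in cow 4 on FD of 4, which kept it out of the class. Over the leucocyte libraries it had 65.1 reads per distinct sequence, against 9.87 for bta-miR-11982. bta-miR-11973, on chromosome 13 from 39299142 to 39299163 on the plus strand, overlaps SLC24A3, a potassium-dependent sodium/calcium exchanger. Its leucocyte levels were 4.56, 7.66 and 9.99 CPM on FD and 5.06, 8.24 and 9.23 CPM on HG, close to those of bta-miR-11982, and it missed the class by 1 distinct sequence in 1 library.

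The next abundant leucocyte members were of the same kind. bta-miR-12044, in a locus that overlaps the ETS factor ELF1 (chromosome 12, 11286039 to 11286059, minus strand), was at 3.49, 4.61 and 1.69 CPM on FD and 3.17, 4.87 and 5.91 CPM on HG. bta-miR-12008, over RNF2, a ubiquitin ligase of Polycomb complexes (chromosome 16, 67587159 to 67587181, plus strand), was the steadiest of them at 3.47, 3.05 and 3.66 CPM on FD and 3.30, 3.64 and 4.04 CPM on HG. In all, the 25 members listed in every leucocyte library had mean levels from 0.259 to 10.3 CPM with a median of 1.30, and 8 of them lay under 1 CPM. Their coefficient of variation over the 6 libraries had a median of 35.3%.

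In plasma 3 members led by mean level, and they behaved differently from each other. bta-miR-11986b was among the 2 members listed in every plasma library, the other being bta-miR-11977, which is named here after its values were seen. bta-miR-11986b lies on chromosome 20 from 10188769 to 10188790 on the minus strand, 921 bases from bta-miR-7858, and its locus overlaps OCLN, which codes for the tight junction protein occludin. Its plasma levels were 140, 43.8, 32.9 and 89.0 CPM on FD and 53.8, 212, 120 and 53.5 CPM on HG (cows 1 to 4). The ranges of the diets overlapped, and each plasma library held 3 or 4 distinct sequences for it. In leucocytes it was at 1.07, 1.60 and 8.13 CPM on FD and at 1.48, 2.27 and 4.00 CPM on HG, with both values of cow 4 the highest of their diet.

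bta-miR-11982 had the highest mean plasma level, 129 CPM ± 123 (SD, n = 8 libraries), with large differences between cows. It was at 10.3, 280, 0 and 239 CPM on FD and at 284, 93.1, 8.37 and 115 CPM on HG. Cow 3 was the lowest on each diet. These plasma counts reached 904 reads in a library, yet the most distinct sequences in any of them was 6, where leucocyte libraries with 205 to 363 reads held 20 or more. bta-miR-12034, in a locus that overlaps SNX5, a sorting nexin of endosomes (chromosome 13, 38543634 to 38543652, minus strand), came next at 77.2 CPM ± 136 (SD, n = 8). On FD it was at 397 CPM in cow 2 and not listed in the other cows, and on HG it was at 55.4, 0, 50.2 and 114 CPM, so the cow with the one high FD value was the one without it on HG. In leucocytes its levels were 0.0643 to 0.418 CPM.

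**Figure D2:**
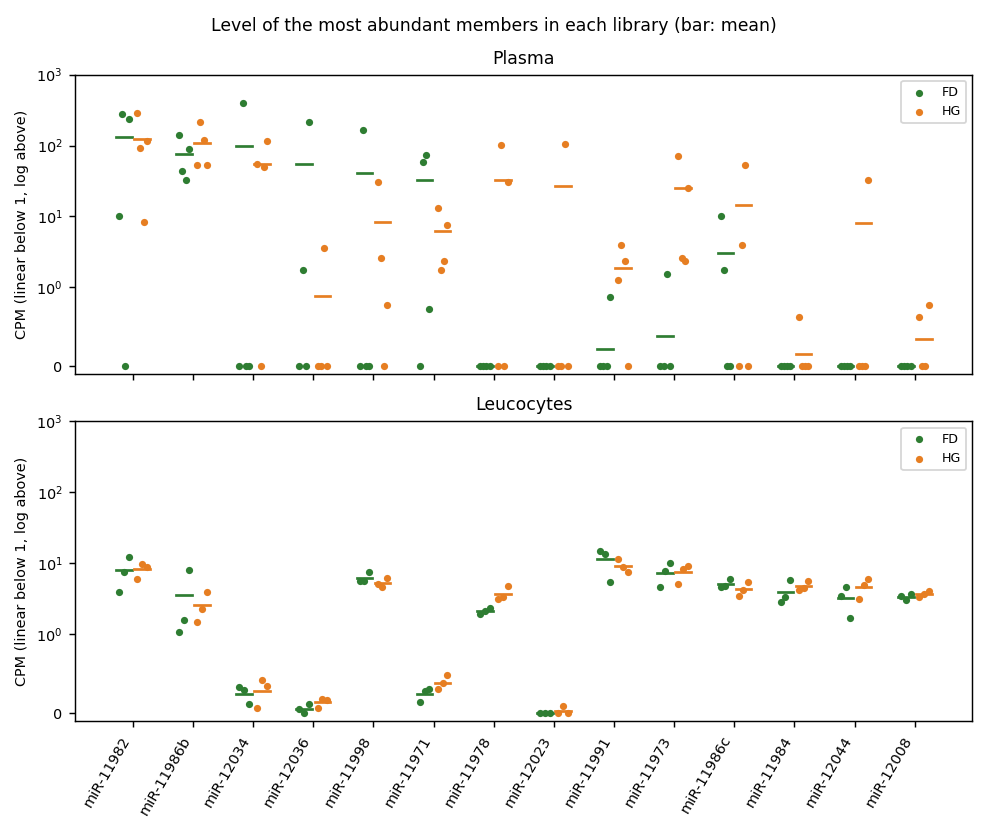
CPM in each library (points, vertical axis linear below 1 and logarithmic above) and the mean of each diet (bars) for the members with the 8 highest means in plasma or in leucocytes, FD in green and HG in orange. Most of these members have every leucocyte point above 0, whereas in plasma many combine points at 0 with 1 or 2 points above 10 CPM.

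Most of the members with at least 100 estimated counts in plasma had the larger part of their level in 1 library. bta-miR-11982 and bta-miR-11986b, the most abundant, did not, with 27.6% and 28.5% in their highest library. Among the 11 members with at least 100 estimated counts in plasma, the highest library held a median of 68.7% of the CPM summed over the 8 libraries, and over 50% for 8 of them. Among 298 other bovine names at that count the median was 28.8%, and 61 were over 50%. In leucocytes the median was 23.9% for 21 members and 23.5% for 408 other bovine names, with no member over 50%. The earlier block from bta-miR-2286 to bta-miR-2489 was like the members, with a plasma median of 64.1% and 13 of 19 names over 50%, and a leucocyte median of 25.1%. The concentration in 1 plasma library was thus seen in each of these blocks of names, and the leucocyte medians were close in all.

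bta-miR-12036 and bta-miR-12027 had the largest shares in 1 library, 97.6% and 100%. bta-miR-12036 overlaps SPRY1, an inhibitor of receptor tyrosine kinase signalling (chromosome 17, 34754652 to 34754675, minus strand). In the FD library of cow 4 it had 492 reads, all of 1 sequence, or 216 CPM, and the other plasma libraries held 0 to 3 reads. bta-miR-12027, over TRAPPC9 (chromosome 14, 4337932 to 4337953, plus strand), had 124 reads of 1 sequence in cow 1 on HG, or 39.0 CPM, and none in the other 7 plasma libraries. bta-miR-12023, over GPR137 (chromosome 29, 43203182 to 43203199, plus strand), had 89 reads of 1 sequence in cow 3 on HG, or 106 CPM, and none elsewhere in plasma. Each of these rests on 1 plasma library.

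Several members that were well supported or steady in leucocytes were also of this kind in plasma. bta-miR-11998 was at 166 CPM in cow 2 on FD and at 30.5 CPM in cow 1 on HG, in each case from 1 sequence, with 0 to 2 reads in the other libraries. bta-miR-11995, in a long noncoding RNA with UBE3A as the nearest coding gene (chromosome 21, 2296462 to 2296483, plus strand), was at 54.1 CPM in cow 1 on HG from 172 reads of 1 sequence. bta-miR-11978 was at 101 CPM in cow 2 and at 30.2 CPM in cow 4 on HG, from 77 and 78 reads of 1 sequence each, and was not listed in any FD library. For bta-miR-11973 the plasma levels were 0, 0, 1.53 and 0 CPM on FD and 70.5, 2.62, 2.39 and 25.6 CPM on HG, the HG value being the higher in each of the 4 cows. In cow 3 it had 2 reads on each diet, so that difference in CPM came from library size alone. In cow 2 it had 2 reads on HG and was not listed on FD.

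Reads were next compared with distinct sequences over the whole block. From 100 to under 1000 reads in a library, plasma counts of the members had a median of 2 distinct sequences (22 values), and those of other bovine names a median of 8 (651 values). A single sequence lay behind 31.8% of the member values and 4.92% of the others. The earlier block was again close to the members in plasma, with a median of 3 (26 values) and 26.9% of values of a single sequence. In leucocytes the medians in the same range of reads were 10 (63 values) and 15 (721 values), and no value rested on a single sequence. The member values held fewer reads within this range, with a median of 202.5 reads against 311 in plasma and 180 against 304 in leucocytes. From 20 to under 100 reads the medians of distinct sequences were 2 and 4 in plasma and 5 and 6 in leucocytes. Of the 31 plasma member values with at least 50 reads, 21 were made of 1 or 2 sequences, against 2 of 90 in leucocytes. Plasma RNA and leucocyte RNA were extracted with different kits from different volumes, so kit, input, depth and sample type cannot be told apart here.

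**Figure D3:**
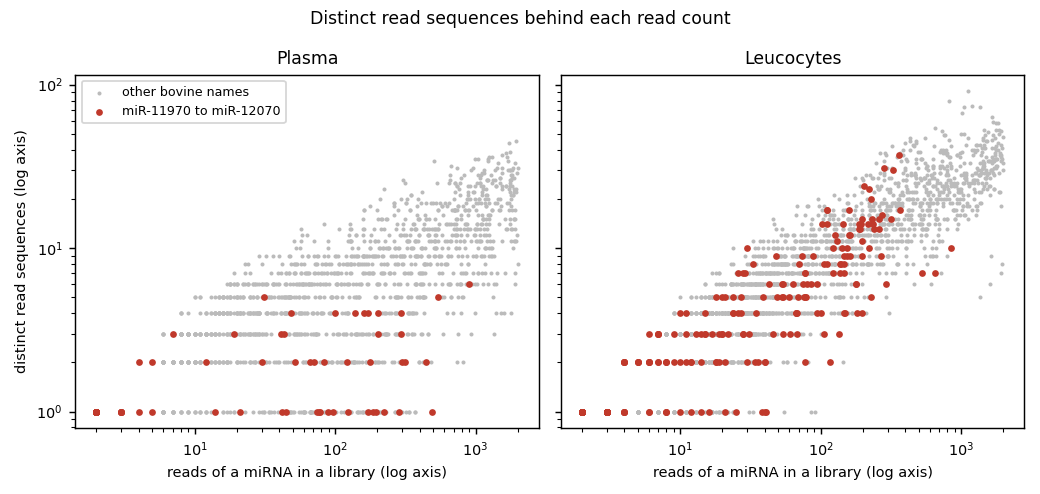
Distinct read sequences (vertical axis, log) against reads (horizontal axis, log, other names shown to 2000 reads) for each miRNA in each library, members in red and other bovine names in grey. In plasma the members lie along the lower edge with a median of 2 sequences from 100 to under 1000 reads, and in leucocytes they lie among the other names with a median of 10.

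The diets were compared first by how many members each library listed. Plasma libraries listed 6 ± 1.63 members on FD and 12.5 ± 2.38 on HG (SD, 4 libraries each), a paired difference of 6.5 ± 2.89, with more on HG in 4 of 4 cows. All other bovine names went from 304 ± 14.1 to 357 ± 9.78 per library, also with more on HG in 4 of 4 cows. The ratio of HG to FD was 2.08 for the members and 1.18 for the rest. These ratios are not like for like. Of the rest, 254 of 666 were in every plasma library and had no room to rise, against 2 of 57 members. The HG library was the deeper one in cows 1 and 4 and the shallower in cows 2 and 3, and the part of depth was not tested. Asking for 10 reads gave 3.5 ± 2.08 and 7 ± 2.94 members, more on HG in 3 of 4 cows. Over the 4 libraries of a diet, 12 members were listed on FD and 23 on HG, of which 12 were listed on HG alone and 1, bta-miR-11989 with 2 reads, on FD alone (this name was looked up after the count was seen). Of the 12, 5 had 3 or fewer reads in every HG library and 8 were in a single HG library, while 9 were listed in all 6 leucocyte libraries. Other names leaned the same way. Among the 538 names with a total of at least 10 counts in plasma, 48 were not listed on FD and 4 not on HG. For the 17 members among them these numbers were 7 and 0. Leucocyte libraries listed 39.3 ± 4.51 with FD and 37.7 ± 3.21 with HG (SD, 3 libraries each), a difference of -1.67 ± 2.08, within the spread.

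No member passed the test of diet in plasma, by edgeR's quasi-likelihood test (cow and diet in the model, Benjamini-Hochberg adjustment, adjusted p under 0.05). Of 57 members, 17 reached a total of 10 counts in plasma and were tested among 538 names. None of the 17 passed, and none of the 538 names did (0.0%). At an unadjusted p under 0.05 there were 6 of 17 members (35.3%) beside 10.2% of all names. Since 7 of the 17 were not listed on FD and reached the total through HG alone, as did 5 of the 6, this share is not evidence of a difference. It was 2 of 17 with DESeq2 and 3 of 17 with undivided reads. DESeq2's Wald test called 1 member, bta-miR-12034, and 12 of all names. The 6 were bta-miR-11973, bta-miR-11978, bta-miR-11992, bta-miR-11995, bta-miR-12023 and bta-miR-12044, of which bta-miR-11992 is named after its values were seen. All 6 were higher on HG, with fitted log2 fold changes of 4.79 to 8.26 and an edgeR adjusted p of 0.452 each. Of these 6, 5 were not listed in any FD plasma library, so their fitted values depend on the prior count of the model, and the sixth, bta-miR-11973, had 2 reads on FD. Over all names tested the median log2 fold change was 0.245.

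bta-miR-11982 and bta-miR-11986b, the most abundant plasma members, had fitted differences far below their errors. For bta-miR-11982 the log2 fold change of HG over FD was 0.82 ± 1.90 (SE, n = 4 cows; edgeR adjusted p = 0.957). For bta-miR-11986b it was 0.10 ± 0.94 (SE; edgeR adjusted p = 0.984). For bta-miR-12034 it was 6.06 ± 3.66 (SE; edgeR adjusted p = 0.696), a fit in which cow 2 went against the other cows. Without the cow term its value was -1.23, so even the direction for bta-miR-12034 depended on the pairing.

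No member passed the test of diet in leucocytes. Of the members, 37 were tested among 782 names, and none had an edgeR adjusted p under 0.05, beside 1.92% of all names (0.384% higher and 1.53% lower on HG). At an unadjusted p under 0.05 there was 1 of 37 members beside 15.0% of all names, and DESeq2 called no member. That 1 was bta-miR-11978, the COBLL1-overlapping miRNA, with a log2 fold change of 0.78 ± 0.24 (SE, n = 3 cows; edgeR adjusted p = 0.139). It was higher on HG in 3 of 3 cows, as its levels above show. With cow 4 left out, only cows 1 and 3 remained. In that fit bta-miR-11978 passed (log2 fold change 0.66, edgeR adjusted p = 0.0475), and so did bta-miR-11991, which was lower on HG (-0.52, edgeR adjusted p = 0.0298). These are 2 of 33 members (6.06%), beside 13.6% of all names called without cow 4. bta-miR-11991 had a log2 fold change of -0.20 ± 0.24 (SE; adjusted p = 0.796) and bta-miR-11982 of 0.19 ± 0.24 (SE; adjusted p = 0.799). The median was 0.08 over the 37 members and -0.01 over all names.

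The difference between the diet effects of leucocytes and plasma was tested directly. None of 39 members passed (edgeR, adjusted p under 0.05), nor did any of 800 names (0.0%), and DESeq2 called none of the members and 12 names. At an unadjusted p under 0.05 there were 7 of 39 members (17.9%) beside 11.6% of all names, and all of these but bta-miR-11973 were listed in plasma on 1 diet alone. The smallest adjusted p was 0.0935, for bta-miR-11978, whose plasma reads lay in 2 HG libraries as given above.

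Between the sample types the members differed in both directions. Over all 14 libraries, with cow and diet in the model, 39 members were tested among 800 names. Higher in leucocytes were 12 members (30.8%) beside 27.3% of all names, and higher in plasma were 4 (10.3%) beside 20.6% of all names (edgeR, adjusted p under 0.05). Of the 39, 15 were not listed in plasma and reached the minimum through leucocytes alone, so they could be called in 1 direction only, and 6 of the 12 are among them. Likewise 1 of the 39 was not listed in leucocytes and could be called higher in plasma only, and it is among the 4. Of the 23 members listed in both sample types, 6 were higher in leucocytes and 3 in plasma, beside 151 and 163 of 621 names. The median log2 difference of leucocytes over plasma was 1.20 over all names, and single values are read against it. With library size as the only scaling the median of all names was 0.269, and the calls were 7 members higher in leucocytes and 6 higher in plasma (126 and 209 of all names, against 218 and 165 with TMM). The number of members called out of those tested, 16 of 39 (41.0%), was near the 47.9% of all names, and 17 of 39 (43.6%) had an unadjusted p under 0.05 beside 52.9% of all names.

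The clearest of the members higher in plasma was bta-miR-11986b. It averaged 93.1 CPM ± 61.3 (SD, n = 8) in plasma and 3.09 CPM ± 2.68 (SD, n = 6) in leucocytes, with every plasma library above every leucocyte library. Its log2 difference was -4.02 ± 0.61 (SE; edgeR adjusted p = 0.000220), and it was called under each of the 13 settings tried. bta-miR-11971, in a locus that overlaps MEGF11 (chromosome 10, 13002758 to 13002777, minus strand), was at 0, 58.0, 72.6 and 0.732 CPM on FD and 13.1, 1.74, 2.39 and 7.49 CPM on HG in plasma, and at 0.147 to 0.482 CPM in leucocytes. Its log2 difference was -4.23 ± 1.33 (SE; edgeR adjusted p = 0.0191), called in 9 of the 13 settings. Its estimated counts were 34.3% of its undivided reads, the rest having been assigned to other places, so its level depends on how shared reads were divided. The other members called higher in plasma were bta-miR-12023, which had its 1 library of 106 CPM, and bta-miR-12050, named after its value was seen, with 21 reads in the HG library of cow 1 and none in leucocytes. Each of these rests on 1 plasma library, and bta-miR-12023 was called in 5 of the 11 settings that tested it. bta-miR-11982, although 129 CPM in plasma and 8.07 CPM in leucocytes on average, did not pass, at a log2 difference of -2.26 ± 1.48 (SE; edgeR adjusted p = 0.227).

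Among the members higher in leucocytes, bta-miR-11991 and bta-miR-12008 had the most plasma reads to compare with, though these were only 11 and 4 in all. The 4 of bta-miR-12008 were 2 reads in each of the HG libraries of cows 1 and 4. bta-miR-11991 averaged 10.3 CPM ± 3.64 (SD, n = 6) in leucocytes and 1.06 CPM ± 1.44 (SD, n = 8) in plasma, and no plasma library reached the lowest leucocyte library. Its log2 difference was 4.70 ± 0.98 (SE; edgeR adjusted p = 0.00210). bta-miR-12008 averaged 3.53 CPM ± 0.339 in leucocytes and 0.176 CPM ± 0.327 in plasma, with a log2 difference of 4.58 ± 0.85 (SE; edgeR adjusted p = 0.00128). These 2 were called in all 13 settings, as were bta-miR-11984 and bta-miR-11999.

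bta-miR-11999 overlaps BTK, the tyrosine kinase of B cell receptor signalling (chromosome X, 55176763 to 55176784, minus strand), and had leucocyte levels of 2.17, 3.88 and 4.20 CPM on FD and 2.96, 2.33 and 1.96 CPM on HG. Its plasma reads were 2, in the HG library of cow 1, as they were for bta-miR-11984 and bta-miR-12003, and bta-miR-11994 had 2 in the HG library of cow 3. The ratio of pooled leucocyte to pooled plasma CPM was 24.5 for bta-miR-11984 (95% exact interval 6.75 to 202), 17.7 for bta-miR-11999 (4.87 to 146), 8.28 for bta-miR-11994 (2.27 to 68.7) and 4.93 for bta-miR-12003 (1.34 to 41.0). These intervals cover counting error only, since reads without molecular identifiers are not independent molecules, and single reads were not listed. The edgeR adjusted p was 0.000677 for bta-miR-11984, 0.00137 for bta-miR-11999, 0.0251 for bta-miR-11994 and 0.0106 for bta-miR-12003. bta-miR-11994 and bta-miR-12003 were each called in 7 of the 13 settings.

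The remaining 6 called members were those not listed in any plasma library. Their call follows in part from how they entered the test, so only their leucocyte levels are given. bta-miR-12052, over the deubiquitinase gene USP42 (chromosome 25, 38672358 to 38672380, minus strand), was at 1.20, 1.10 and 0.873 CPM on FD and 1.16, 1.16 and 1.02 CPM on HG in leucocytes. bta-miR-12020, over the ubiquitin ligase gene UBR3 (chromosome 2, 26449650 to 26449672, plus strand), was at 1.41, 1.56 and 1.64 CPM on FD and 1.29, 1.61 and 0.170 CPM on HG. The HG library of cow 4 was the low one for bta-miR-12020, with 4 reads.

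bta-miR-12059 was the third of these. It overlaps FLOT2, a lipid raft protein gene, and lies on chromosome 19 from 20811534 to 20811554 on the minus strand. That is 14442 bases from bta-miR-144 and 14637 bases from bta-miR-451 on the same strand, the miRNA pair that is abundant in developing red cells. It was at 0.722, 0.436 and 1.36 CPM on FD and 0.300, 0.537 and 0.510 CPM on HG in leucocytes, with 1 or 2 distinct sequences in every library. The summed erythrocyte markers were higher in leucocytes than in plasma too, as given above, and their part in where bta-miR-12059 was listed was not tested. The other 3 members called higher in leucocytes, bta-miR-11974, bta-miR-11993 and bta-miR-12024, are named after their calls were seen and averaged 0.551, 0.287 and 0.423 CPM in leucocytes. These last 3 means lay below the level that 2 reads stood for in every plasma library, 0.629 CPM at the lowest. The same level could thus have been missed in plasma.

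**Figure D4:**
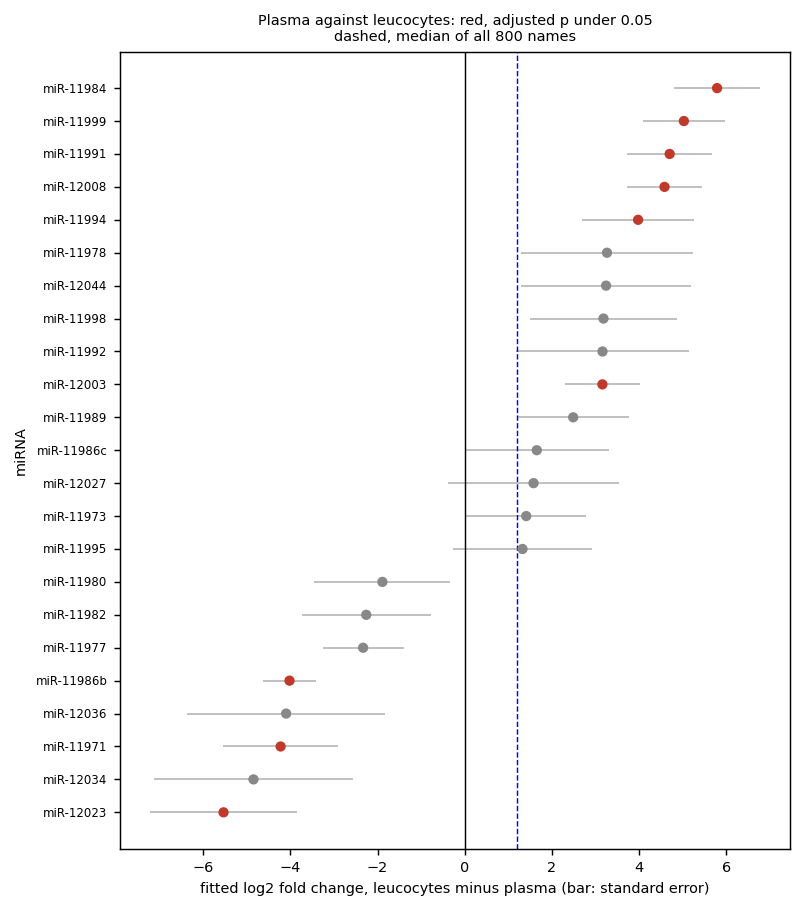
Fitted log2 difference of leucocytes over plasma (horizontal axis, bars standard errors) for the 23 tested members listed in both sample types (vertical axis), red where the edgeR adjusted p was under 0.05. The dashed line marks the median of all 800 names at 1.20, with 6 red members to its right and 3 to the left of 0.

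Most members lay inside other genes, as most bovine miRNA loci do. Of the 57, 56 were matched by name in the RefSeq table of ARS-UCD2.0, the exception being bta-miR-12024. There 49 overlapped another gene and 47 of these a protein-coding one. The table gives no strand, so sense and antisense overlaps cannot be told apart. Over all miRNA loci of the table, 78.1% of the 96 in this number range and 64.7% of the 936 others overlapped a protein-coding gene. The mature forms were 18 to 24 bases long with a median of 22. Estimated counts were below the undivided reads for 4 members, bta-miR-11971, bta-miR-11975, bta-miR-11976 and bta-miR-11977 (listed here after the count was seen), and bta-miR-11975 and bta-miR-11976 share a position and had identical counts, so their reads are uncertain. bta-miR-12064, which overlaps no gene, was at 0 to 0.448 CPM in leucocytes and was not listed in plasma. bta-miR-11994 also overlaps none and was at 1.30, 1.64 and 0 CPM on FD and 1.5, 1.61 and 1.15 CPM on HG in leucocytes.

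Names whose levels moved most like those of the leading members were sought over the libraries of a sample type, as a description. In plasma (n = 8 libraries) the log2 CPM of bta-miR-11982 correlated most with bta-miR-211 (Pearson's r = 0.934) and bta-miR-138 (0.855). That of bta-miR-11986b correlated most with bta-miR-199a-5p (0.931) and bta-miR-369-3p (0.930), and that of bta-miR-12034 with bta-miR-7 (0.846) and bta-miR-331-3p (0.837). In leucocytes (n = 6 libraries) bta-miR-11991 was closest to bta-miR-190a (0.977) and bta-miR-19a (0.977), bta-miR-11982 to bta-miR-10172-5p (0.986) and bta-miR-193b (0.982), and bta-miR-11973 to bta-miR-210 (0.981) and bta-miR-10172-3p (0.981). These were the highest of all bovine names and the libraries share cows and depth, so no test is attached to them.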

How the data were processed

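Small RNA libraries of plasma (8, cows 1 to 4) and leucocytes (6, cows 1, 3 and 4) on FD and in week 1 of HG were analysed. RNA was extracted with a NucleoSpin Plasma miRNA kit from plasma and a NucleoSpin miRNA kit from leucocytes. Per the submitters' processing notes, reads were demultiplexed with bcl2fastq 2.20. The authors trimmed them with Skewer and assigned them with sRNAbench, which divides or repeats reads that fit several names, on UMD3.1 and miRBase names.

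The deposited read counts repeat a shared read in full at each name, and the deposited counts of distinct sequences come from the same reads. The deposited estimated counts (expected counts) divide shared reads, and they were rounded to whole numbers for the tests. The signal tables that the authors also deposited held these rounded counts divided by a size factor, checked to within 0.1% for all 520 plasma and 730 leucocyte names, and served only to say which members the authors kept. Per-library columns of no mapped sample numbered 0.

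Names with a total of at least 10 were tested with edgeR 4.0.16 in R 4.3.3 (quasi-likelihood, robust, TMM, Benjamini-Hochberg over all names, adjusted p under 0.05) with cow plus diet per sample type, cow plus diet plus sample type over all libraries, and a block for each cow in each sample type for the difference of diet effects. The standard error is the size of the log2 fold change over the root of the F statistic. The scripts were tested on simulated data. For diet in plasma edgeR recovered 0% of the names given a log2 change of 1 and 50.8% of those given 3. These shares were 61.2% and 93.9% for diet in leucocytes, and 3.76% and 65.6% between sample types. For the difference of diet effects they were 0% and 19.6%. DESeq2 1.42.0 (the authors' test), other scalings, no filter, undivided reads, no cow term, other read and sequence minimums, single diets and each cow left out were tried as alternatives.

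Leucocyte titles carry cow letters, and the plasma pairing rests on the authors' numbering of cows. Deviations from the diet means correlated within cows by -0.215 to 0.149 in plasma and 0.267 to 0.388 in leucocytes, and between cows by -0.263 to 0.346 and -0.356 to 0.0778. P-values for diet measure the spread of the diet difference between these cows. Between sample types the FD and HG libraries of a cow entered as separate libraries. Those p-values measure the spread between libraries once cow and diet are fitted.

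Members named with values were the 8 highest by mean CPM in each sample type, up to 10 called per comparison by smallest adjusted p, those the paper names, and the 3 with the largest share in 1 library among those with at least 100 counts. The members and lists were chosen with earlier results of these data known. Coordinates are 1-based on UMD3.1, and gene names come from RefSeq on ARS-UCD2.0. Mature sequences, RT-qPCR and target predictions were not analysed here.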

Additional observations from a re-analysis of the deposited data

Results flagged for a closer look

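Within each diet, 32 groups of 4 plasma libraries of a named member were examined for a library far from the other 3, by Dixon's criterion, which flags about 1 in 20 groups by chance. That rate does not apply here, because some of these members were named for their large share in 1 plasma library and because in 12 of the 16 groups picked out the other 3 libraries were at 0. The 16 are given as values. The leucocyte groups of 3 were too small to examine.

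The high ones on FD were bta-miR-12034 in cow 2 (397 CPM, 445 reads of 2 sequences), bta-miR-12036 in cow 4 (216 CPM, 492 reads of 1 sequence) and bta-miR-11998 in cow 2 (166 CPM, 186 reads of 1 sequence). On HG they were bta-miR-12023 in cow 3 (106 CPM), bta-miR-11995 in cow 1 (54.1 CPM), bta-miR-11986c in cow 3 (53.8 CPM, 45 reads), bta-miR-12027 in cow 1 (39.0 CPM), bta-miR-12044 in cow 4 (32.2 CPM, 83 reads) and bta-miR-11998 in cow 1 (30.5 CPM). Except for bta-miR-12034 and bta-miR-12044, with 2 sequences each, every one of these 9 values was made of 1 read sequence.

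The other values were of 2 or 3 reads. They were bta-miR-12036 in cow 3 on HG at 3.59 CPM, bta-miR-11994 in cow 3 on HG at 2.39 CPM, bta-miR-11973 in cow 3 on FD at 1.53 CPM, bta-miR-11991 in cow 4 on FD at 0.877 CPM, and bta-miR-11984, bta-miR-11999 and bta-miR-12003 in cow 1 on HG at 0.629 CPM each.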

How the results depend on the processing

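Plasma depth limits the comparisons, since 35 of the 56 leucocyte levels stand for fewer than 2 reads in every plasma library. Under every alternative run, edgeR called no member for diet in plasma and none for the difference of diet effects. DESeq2 called 1 member for diet in plasma (12 of all names). For diet in leucocytes, leaving out a cow gave 0 to 2 members (0 to 102 of all names), the 2 being bta-miR-11978 and bta-miR-11991 without cow 4. All names called there, 15, became 32 with DESeq2, 9 with size factors and 0 without cow 3, and 12 names were called by DESeq2 for the difference of diet effects against 0. Between sample types the 16 members became 14 with DESeq2 (8 of them shared), 12 on HG alone and 8 on FD alone (383 of all names became 151), and 12 to 16 when a cow was left out.

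Without the replicate block, which pairs libraries by cow, 0 members and 0 names were called for diet in each sample type and 19 members between sample types, and the log2 fold change in plasma was -1.23 for bta-miR-12034 and -0.50 for bta-miR-11982.

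The differences that turned did not pass the test in the stated design. bta-miR-12023 in plasma was at -0.10 by DESeq2. Leaving out a cow gave -0.72 (cow 1) to 2.91 for bta-miR-11982 and -0.33 (cow 2) to 0.61 for bta-miR-11986b in plasma, with -0.42 and -0.24 for these without cow 3, and -0.52 (cow 4) to 0.061 (cow 3) for bta-miR-11991 in leucocytes. The diet difference in members listed became 3.5 in plasma and 0.333 in leucocytes at 10 reads. That in their share of counts became 0.0170 without cow 2, 0.00363 without cow 4 (range -0.0149 to 0.0170) in plasma, and 8.68e-05 with undivided reads, -0.00107 over bovine names and -0.000517 to 2.43e-05 without a cow (highest without cow 4) in leucocytes. With 3 distinct sequences 1 plasma (bta-miR-11986b) and 13 leucocyte members were well supported, with 10 sequences 1 in leucocytes (bta-miR-11982), and without a cow 6 to 13 (13 without cow 4). The cause of each was not tested.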
